A study of Homo sapiens with 3 samples.

Results

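Solitary stretches of chromatin marked by histone H3 acetylated at lysine 27 (H3K27ac) are described here in SC1 cells, a human line labelled DLBCL, diffuse large B-cell lymphoma. The members were chosen by their positions in the H3K27ac list alone. A region counted as isolated when the gap to the nearest other H3K27ac region was over 100 kb on both sides. On chromosomes 1 to 22 and X this held for 2030 of 18263 regions, 11.1% of the list, which carried 2.99 Mb of the 34.1 Mb of H3K27ac-covered sequence, 8.76%. The other 16233 regions had a neighbour within that distance. Among the isolated regions, 20 were the first or last region of their chromosome and were judged on the 1 gap they have.

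H3K27ac is laid down mainly by the related acetyltransferases CREBBP and EP300 and marks active promoters and enhancers. Active elements often lie in clusters around strongly expressed genes, and wide clusters are called super-enhancers. A mark that stands alone in a long unmarked stretch can belong to a single promoter or a single distal element. In germinal-centre B cells, from which many DLBCLs arise, CREBBP helps to keep enhancers acetylated, and its gene is often mutated in this lymphoma.

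The series holds chromatin immunoprecipitation with sequencing (ChIP-seq) of SC1 cells with an antibody to CREBBP, the same with an antibody to H3K27ac, and an input without antibody, 1 sample each. The labels give no genotype and no treatment, while the peak names carry the words DMSO and rep2. The authors' lists of narrow CREBBP peaks and broad H3K27ac regions were used, and the input was not analysed here. With 1 sample per antibody no difference has a replicate check, so all values describe these libraries. Intervals are 95% intervals that cover counting error over regions only and treat regions as independent. The H3K27ac positions chose the members, and width and H3K27ac fold come from the same list, so both are descriptions. CREBBP was not used to choose them.

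The isolated regions lay far apart. Their smaller gap, the distance to the nearer of both neighbours, had a median of 170 kb (interquartile range 126 to 278 kb), against 12.7 kb (4.53 to 32.3 kb) in the other regions. It was between 100 and 200 kb in 1210 isolated regions, over 500 kb in 212 and over 1 Mb in 54. Of the isolated regions, both neighbours of 414 were themselves isolated, 966 had 1 isolated neighbour and 650 had none. A gap is shared by both its regions, so the rule itself favours such neighbours.

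The threshold cuts a continuous range of gaps. The 3 regions just inside it lay on chromosome 12 from 94853098 to 94854343 (smaller gap 100 kb), on chromosome 1 from 89356608 to 89357740 (100.1 kb) and on chromosome 1 from 89457803 to 89459148 (100.1 kb). The last 2 are each other's nearest neighbours. Their H3K27ac folds were 3.57, 3.06 and 7.54, and the second held 1 CREBBP peak. The 3 regions just outside lay on chromosome 18 from 75345028 to 75345622 (99.99 kb), on chromosome 1 from 151584323 to 151585324 (99.97 kb) and on chromosome 18 from 61766637 to 61768292 (99.96 kb). Their folds were 22.2, 7.74 and 4.08, and the last 2 each held 1 CREBBP peak.

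The part of the list that was isolated differed between chromosomes. Isolated regions made up 21.8% of regions on chromosome X (117 of 536, exact Clopper-Pearson interval 18.4 to 25.6%) and 21.1% on chromosome 13 (79 of 375, 17.05 to 25.5%). The share was 17.3% on chromosome 5 (141 of 815). It was lowest, at 2.51%, on chromosome 19 (28 of 1117, 1.67 to 3.60%), followed by 2.90% on chromosome 22 (15 of 517) and 4.27% on chromosome 17 (44 of 1031). Per Mb there were 0.754 isolated regions on chromosome X, 0.686 on 13, 0.474 on 19, 0.293 on 22 and 0.542 on 17. All marked regions together numbered 3.45, 3.26, 18.9, 10.1 and 12.7 per Mb on these 5 chromosomes, in the same order.

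Isolated regions were mostly short. Their median width was 1274 bp (interval 1237 to 1313 bp) and the middle 50% of them spanned 864 to 1826 bp. The other regions had a median of 1447 bp, with a middle 50% of 927 to 2195 bp. Very wide regions were seldom isolated. Of the narrowest width decile, 257 to 523 bp wide, 220 regions were isolated, 12.01%. Of the widest, from 3494 bp upwards, 67 were isolated, 3.67%. In between, the share was highest, at 15.2%, in the fourth decile, from 1020 to 1219 bp.

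**Figure D1:**
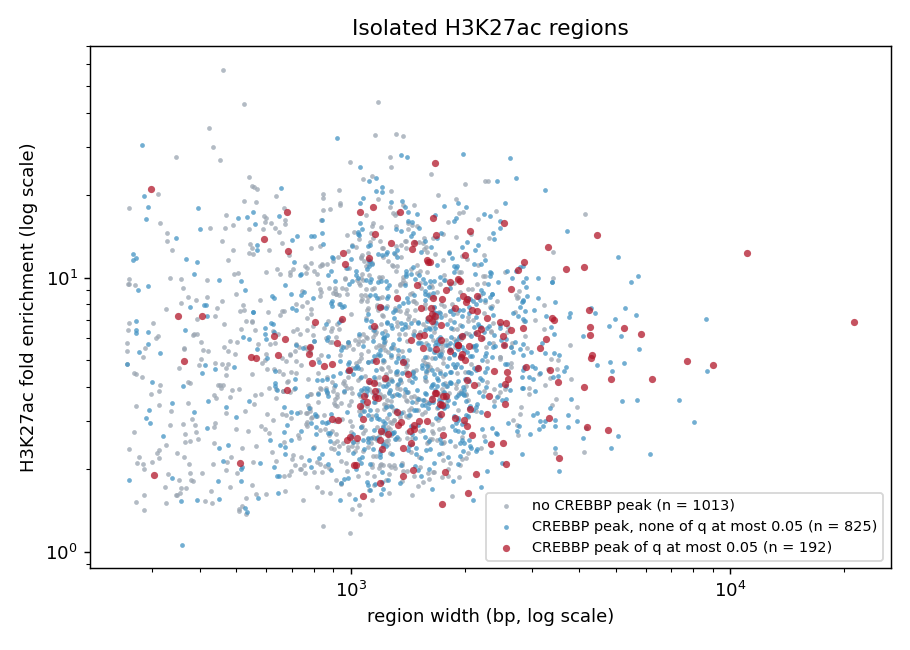
Each point is 1 of the 2030 isolated H3K27ac regions, with its width in bp on the x axis and its H3K27ac fold enrichment on the y axis, both on log scales, coloured by the CREBBP peaks it holds. The 192 regions with a CREBBP peak of q at most 0.05 range in H3K27ac fold from 1.49 to 26.2, within 1.06 to 57.4 for all isolated regions, and have a median width of 1679 bp, against 1120 bp in the 1013 regions without any CREBBP peak.

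The H3K27ac enrichment of isolated regions was about that of other regions of like width. The values are the authors' fold enrichment, ChIP signal over expected background, taken as a mean over each region. Its median was 5.09 in isolated regions (interval 4.85 to 5.27, interquartile range 3.19 to 8.27), against 4.80 (3.03 to 7.94) in other regions weighted to the same width classes, a ratio of 1.06 (1.01 to 1.10). Without weighting by width, the median of the other regions was 4.90. Like width here means 10 classes of equal size over all regions, with the other regions weighted to the isolated regions' numbers per class. The median was higher in isolated regions in 8 of these 10 classes. The exceptions were the third class, with 4.40 in isolated and 4.72 in other regions, and the widest, with 4.94 and 5.38. The interval of the ratio includes 1 when only H3K27ac regions of q at most 0.01 are used, where it is 1.04 (0.994 to 1.08). It also does with a gap of 50 kb (1.02, 0.995 to 1.05) or 200 kb (1.03, 0.961 to 1.09), and without matching on width (1.04, 0.990 to 1.08).

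**Figure D2:**
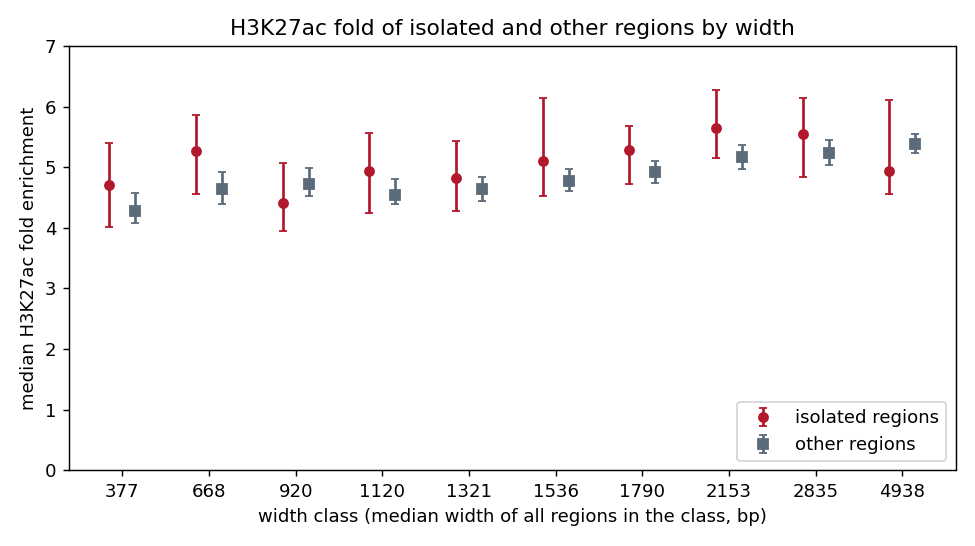
The x axis gives 10 width classes by their median width in bp and the y axis the median H3K27ac fold enrichment, for isolated regions and other regions, with 95% order-statistic intervals as bars. The intervals of both sets overlap in all 10 classes, and the isolated median is the higher in 8 of 10.

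The authors' q values were also close in both sets. The median −log10 q was 33.7 (interval 31.6 to 36.02), against 32.1 in other regions of like width. A q above 0.05 was given for 16 isolated regions, 0.788%, and for 103 other regions, 0.635%. These 16 isolated regions were narrow, with a median width of 527 bp and a median fold of 1.59. A CREBBP peak lay in 6 of them, 37.5% (15.2 to 64.6%), against 49% of the whole list. Of other regions 257 to 523 bp wide 23.8% held one, and of those 524 to 803 bp wide 29.2%. Within the isolated set, fold was almost unrelated to width (Spearman rho 0.070, Pearson r -0.022) and to the smaller gap (rho -0.024, r -0.014), both over 2030 regions of 1 library. The 212 regions with a smaller gap over 500 kb had a median fold of 4.70.

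The 5 highest H3K27ac folds among isolated regions stood over 422 to 1317 bp. The largest, 57.4, was on chromosome 2 from 32853207 to 32853666, a stretch of 460 bp with gaps of 270 and 210 kb, and it was also the largest in the whole list, where other regions reached 51.6. Second came 43.9 on chromosome 16 from 27560667 to 27561845, over 1179 bp. A fold of 43.2 was found on chromosome 11 from 104576262 to 104576785, over 524 bp. The fourth was 35.04, on chromosome X from 9133191 to 9133612, over 422 bp, and the fifth was 33.4, on chromosome 2 from 45165274 to 45166590, over 1317 bp. None of these 5 regions held a CREBBP peak. The nearest CREBBP peak was 23.3, 6.34, 1.81, 0.162 and 8.29 kb away, in the same order. With 5 regions the interval of that share of 0 reaches 52.2%, which takes in the 49% of the whole H3K27ac list that held one. The whole list is not of like width. Of other regions 257 to 523 bp wide 23.8% held one, and of those 1220 to 1423 bp wide 42.7%.

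A fold of 20 or more was reached by 46 isolated regions, 2.27% (interval 1.66 to 3.01%), against 1.88% of other regions at like width and 1.79% of the whole list. Of the 46, 18 held a CREBBP peak, 39.1% (25.1 to 54.6%), against 129 of the 281 other regions of such fold, 45.9% (39.97 to 51.9%). A CREBBP peak of q at most 0.05 lay in 2 of the 46 and in 26 of the 281. The intervals of the shares with any peak overlap, which does not by itself show that the shares are equal. The differences were not tested. Chromosome X carried 9 of the 46, 19.6%, against 11 of the 281 others, 3.91%. On chromosome X, 7.69% of isolated regions had such a fold (9 of 117, 3.58 to 14.1%), against 2.63% of the other regions there (11 of 419, 1.32 to 4.65%). On the autosomes the shares were 1.93% (37 of 1913) in isolated and 1.71% (270 of 15814) in other regions. The median fold of isolated regions was 5.97 on chromosome X and 5.04 on the autosomes, against 6.09 and 4.87 in the other regions.

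About as many isolated regions held a CREBBP peak as did not. At least 1 peak, sharing at least 1 bp, lay in 1017 of 2030 isolated regions, 50.1% (interval 47.9 to 52.3%), against 49% of the whole list. At like width the share was 44.5% in the other regions (43.7 to 45.2%, normal approximation), 5.64 percentage points below the isolated share. The interval of the difference was 3.44 to 7.84 points, with the share of the other regions taken as fixed. Without regard to width, 7923 of 16233 other regions held a peak, 48.8%, and the difference was 1.29 points. The isolated regions held 1159 CREBBP peaks, 0.538% of the CREBBP list. Exactly 1 peak lay in 892 regions, 2 peaks in 109 and 3 or 4 in 16. The share with 2 or more was 6.16% (5.15 to 7.29%), against 4.92% of other regions at like width. Without regard to width it was 8.44% of other regions.

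Taken over the whole 100 kb on either side, the flanks of isolated regions held more CREBBP peaks per Mb. Outside all H3K27ac regions, the median was 90 CREBBP peaks per Mb (interquartile range 65 to 115) around isolated regions, against 62.6 (41.5 to 91.9) around other regions of like width. The flanks of the other regions can take in the sparse stretches beside further H3K27ac regions, which the rule largely keeps out of the flanks of isolated ones. How much of the difference in flank density comes from this was not tested. When the other regions were weighted to like width and like density in these flanks, a step chosen after seeing the data, their share was 46.96% and the difference was 3.14 points (0.938 to 5.33). Weighted to like width within each chromosome, also a later step, they came to 45.8% and the difference was 4.31 points (2.11 to 6.51). That step used coarser width classes, so its change from the main value does not rest on chromosome alone.

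For the stronger CREBBP peaks the shares at like width lay close together. A CREBBP peak of q at most 0.05 lay in 192 isolated regions, 9.46% (interval 8.22 to 10.8%), against 11.4% of the whole list. At like width the share of the other regions was 9.41%, and the difference was 0.052 points (-1.19 to 1.41). These regions held 195 of the 3901 CREBBP peaks of that strength, 4.999%. The excess of isolated regions therefore lay among those holding only weaker peaks, 825 regions or 40.6% (38.5 to 42.8%), against 35.05% of other regions at like width. The CREBBP list reaches down to a −log10 p of 1.30 with no limit on q. In 434 isolated regions, 21.4%, the strongest peak had a −log10 q of 0, against 18.1% at like width.

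The CREBBP shares were higher in the widest than in the narrowest class in both sets. In the narrowest class, with a median of 377 bp, 30.5% of isolated regions held a peak (67 of 220, 24.4 to 37.0%), against 23.8% of the other regions. In the eighth class, with a median of 2153 bp, the shares were 70.9% (141 of 199, 64.01 to 77.1%) and 60.2%. In the widest they were 88.1% (59 of 67, 77.8 to 94.7%) and 84.5%. The isolated share was the higher in all 10 classes, and in 4 of them its whole interval lay above the share of the other regions. The smallest difference was in the fifth class, 42.9% in isolated and 42.7% in other regions. For peaks of q at most 0.05 the isolated share was the higher in 6 of 10 classes, and in the widest it was 31.3% (21 of 67, 20.6 to 43.8%), against 33.01%.

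**Figure D3:**
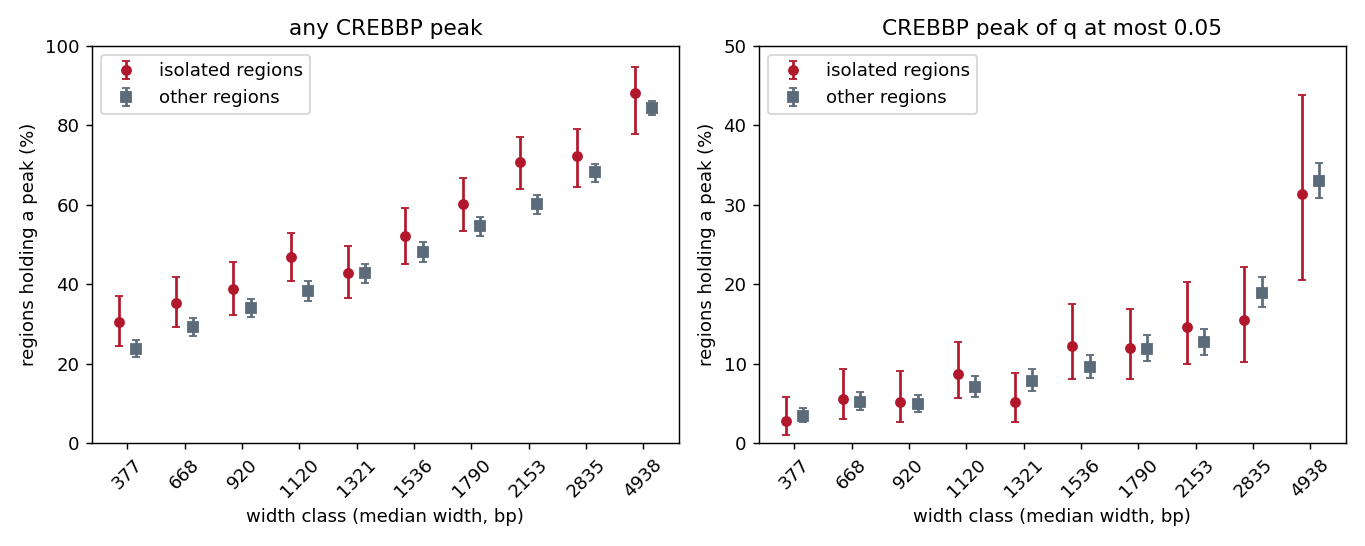
Both panels give 10 width classes by their median width in bp on the x axis and the percentage of regions that hold a CREBBP peak on the y axis, for isolated and other regions, with exact 95% intervals as bars. With any peak (left) the isolated share is the higher in all 10 classes, from 30.5% against 23.8% in the narrowest to 88.1% against 84.5% in the widest, and with peaks of q at most 0.05 (right) in 6 of 10.

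The share with any CREBBP peak, taken at like width, differed along the range of gaps. It was 40.4% where the nearest H3K27ac region lay within 2 kb (37.7 to 43.1%, normal approximation) and 42.04% at 2 to 5 kb. It was 45.4% at 5 to 10 kb, 44.4% at 10 to 25 kb, 46.1% at 25 to 50 kb and 46.6% at 50 to 100 kb. In the isolated range it was 50.05% at 100 to 200 kb (47.3 to 52.8%), 50.4% at 200 to 500 kb and 50.1% beyond 500 kb (43.6 to 56.6%). The share was thus about level once the gap passed 100 kb. For the peaks that reached a q of 0.05 it was 7.48% (6.10 to 8.87%) within 2 kb and 8.97% to 9.96% in the classes from 2 to 100 kb. It was 10.3% (8.58 to 11.9%) at 100 to 200 kb, 8.84% at 200 to 500 kb and 7.13% (3.64 to 10.6%) beyond 500 kb. The intervals given overlap, which does not by itself show that the shares are equal. Median flank density was 59.7 CREBBP peaks per Mb within 2 kb, 53.7 at 5 to 10 kb, 95 at 100 to 200 kb and 70 beyond 500 kb.

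**Figure D4:**
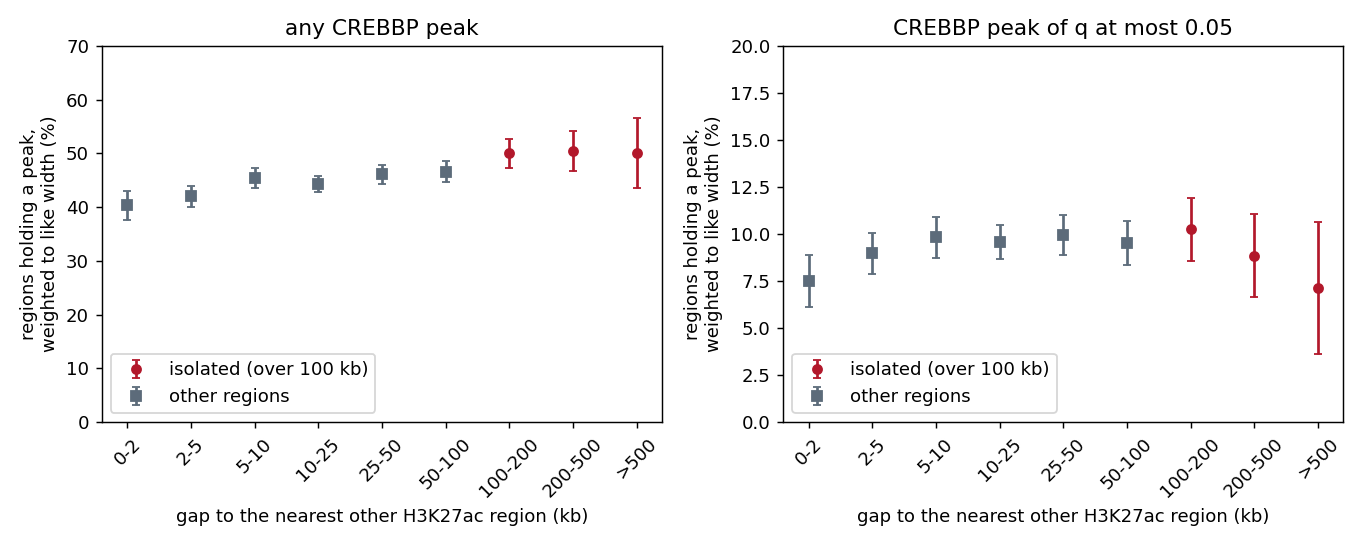
The x axis gives classes of the gap to the nearest other H3K27ac region in kb and the y axis the percentage of regions that hold a CREBBP peak, weighted to the widths of the isolated regions, with approximate 95% intervals as bars. With any peak (left) the 3 isolated classes lie between 50.05% and 50.4% and the other classes between 40.4% and 46.6%, while with peaks of q at most 0.05 (right) all classes lie between 7.13% and 10.3%.

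Where a CREBBP peak was present, its strength in isolated regions was close to that in other regions of like width. For each region the strongest peak by p was taken. Its median fold was 2.16 in isolated regions (interval 2.15 to 2.23), against 2.16 at like width. If fold is fragments plus 1 over background plus 1 and p the upper Poisson tail, both numbers at the summit can be solved, and this succeeded for all 10903 CREBBP peaks in H3K27ac regions. The median summit in isolated regions had 16 fragments (15 to 17) over a background of 6.87 (6.47 to 7.39), against 17 fragments over 7.39 at like width. The part of these slightly lower backgrounds in the share of regions with a peak was not tested. Beyond a smaller gap of 500 kb the medians were 12 fragments over 4.62.

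The strongest peak tended to lie near the middle of its region. The summit was inside the region in 943 of 1017 isolated regions, 92.7%, and within the middle 50% of its length in 680, 66.9%. The median distance of the summit from the centre was 0.334 on a scale of 0 at the centre to 1 at the edge, against 0.338 at like width. Among regions with a CREBBP peak only, such peaks covered a median of 34.9% of an isolated region (32.9 to 36.7%), against 31.5% at like width. In the same regions the strongest peak was 487 bp wide (469 to 504 bp), against 458 bp. In the 1013 isolated regions without a CREBBP peak, the nearest one was a median of 6.65 kb away (6.34 to 6.97 kb), against 6.94 kb at like width.

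CREBBP summits were dense inside isolated regions, sparse just beyond their edges and denser again from 5 kb outwards. Each summit outside the mark was given to its nearest H3K27ac region. The densities here and for the stronger peaks below are not weighted to width. The other regions were wider, with a median of 1447 bp against 1274 bp. The density was 359 summits per Mb inside isolated regions (exact Poisson interval 338 to 381), against 295 (289 to 301) inside the others. It was 63.05 in the first kb outside isolated regions (55.6 to 71.3), against 49.8, and 37.7 from 1 to 2 kb (31.95 to 44.2), against 34.4. From 5 to 10 kb it was 101 around isolated regions (97.05 to 106), against 77.03 (75.4 to 78.7) around others. From 50 to 100 kb the densities were 88.6 (87.1 to 90.04) and 91.7 (90.4 to 93.0). The dip next to the mark was thus present around solitary regions too, where no second H3K27ac region lies within 100 kb.

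The stronger CREBBP peaks were few outside the mark. Those of q at most 0.05 had 61.8 summits per Mb inside isolated regions (53.2 to 71.4), against 62.5 inside others. From 1 to 2 kb outside isolated regions the density was 0.739, which rests on 3 summits (0.152 to 2.16). In the stretch from 5 to 10 kb it was 1.92 (39 summits, 1.37 to 2.63), against 1.03 (110 summits, 0.850 to 1.25). From 50 to 100 kb the densities were 0.588 (93 summits, 0.475 to 0.721) around isolated regions and 0.776 (160 summits, 0.660 to 0.906) around others.

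**Figure D5:**
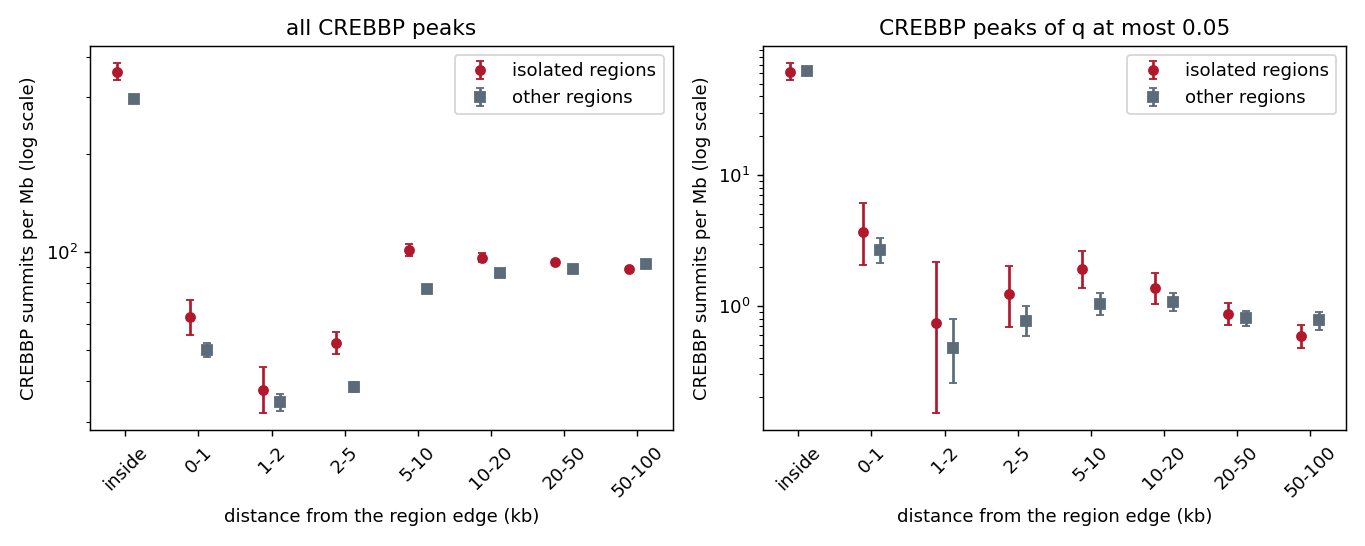
The x axis gives the distance of CREBBP summits from the edge of the nearest H3K27ac region in kb and the y axis their number per Mb on a log scale, for isolated and other regions, with exact Poisson 95% intervals as bars. For all peaks (left) the density around isolated regions is 359 inside, 37.7 at 1 to 2 kb and 101 at 5 to 10 kb, and peaks of q at most 0.05 (right) show 61.8, 0.739 and 1.92 at the same places.

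All 5 of the widest isolated regions held at least 2 CREBBP peaks. In the widest width class, from 3494 bp upwards, 88.1% of isolated and 84.5% of other regions held at least 1. How many other regions of such width held 2 or more was not counted. Whether this is particular to isolated regions is therefore not known. At the top stood 21253 bp on chromosome 6 from 27094643 to 27115895, where the H3K27ac fold was 6.86 and the smaller gap 103 kb. It held 4 CREBBP peaks, 2 of them with q at most 0.05, and the strongest had 34 fragments over a background of 8.31. The second spanned 11072 bp on chromosome 1 from 87516301 to 87527372, with a fold of 12.3. It held 2 peaks, both with q at most 0.05, and the stronger had a fold of 5.17.

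The third was 9039 bp wide, on chromosome X from 149860344 to 149869382, with a fold of 4.81 and 2 peaks, of which 1 passed. The fourth was 8726 bp wide, on chromosome 14 from 106452990 to 106461715, with a fold of 4.56 and 3 peaks, none of which passed. The fifth was 8653 bp wide, on chromosome 6 from 10528656 to 10537308, with a fold of 7.05 and 2 peaks, none of which passed. All 5 had smaller gaps between 102 and 135 kb, near the threshold.

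The most remote regions varied more. The largest smaller gap, 4.30 Mb, belonged to a stretch of 271 bp on chromosome 4 from 31292550 to 31292820. It had an H3K27ac fold of 1.52, a −log10 q of 0.841 and no CREBBP peak. That region does not reach a q of 0.05. Next came a region of 642 bp on chromosome X from 143285628 to 143286269, 3.71 Mb from its nearer neighbour. Its fold was 5.22, and a CREBBP peak with q at most 0.05 and a fold of 3.19 covered 97.7% of it. The third, 3.20 Mb from its nearer neighbour, was 3283 bp wide, on chromosome 13 from 91999104 to 92002386, with a fold of 5.96 and 2 CREBBP peaks. Its stronger peak had 89 fragments over a background of 53.6, so its fold was only 1.65.

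The fourth was 2704 bp wide, on chromosome X from 139013333 to 139016036, with a fold of 7.46, a smaller gap of 3.02 Mb and no CREBBP peak within 17.4 kb. The fifth was 334 bp wide, on chromosome 18 from 39535221 to 39535554, with a fold of 9.99 and a smaller gap of 2.72 Mb. It held no CREBBP peak, and the nearest lay 0.239 kb away. Of the 54 isolated regions with a smaller gap over 1 Mb, 27 held a CREBBP peak, 50% (36.1 to 63.9%), against 49% of the whole list. A peak of q at most 0.05 lay in 5 of the 54, 9.26% (3.08 to 20.3%), against 11.4%. Both intervals take in the share of the whole list.

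The 5 isolated regions whose strongest CREBBP peak had the highest fold ranged from 2.63 to 10.9 in H3K27ac fold. On chromosome 4 from 43911083 to 43913638, a CREBBP fold of 10.9, with 40 fragments over a background of 2.77, stood in a region of H3K27ac fold 3.45. On chromosome 3 from 88482832 to 88484470 the CREBBP fold was 9.98, with 22 fragments over 1.30, and the peak covered 83.5% of a region of H3K27ac fold 7.36. That region lay 283 kb from one neighbour and 5214 kb from the other.

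On chromosome 2 from 199562967 to 199567082 the CREBBP fold was 6.74 and the H3K27ac fold 10.9. On chromosome 10 from 5454290 to 5455286 they were 6.51 and 2.63, with 96.8% of the region covered by CREBBP. On chromosome 20 from 8380550 to 8382520 they were 6.08 and 5.27. Over the 1017 isolated regions with a CREBBP peak, H3K27ac fold had a Spearman rho of 0.013 and a Pearson r of 0.013 with the fragments at the strongest CREBBP summit. Width had a rho of 0.26 and an r of 0.022 with them. Fragments and background were closely tied, with a rho of 0.87 and an r of 0.96. These relations are across regions of 1 pair of libraries, and regions are not replicates.

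Without regard to width, the share with a CREBBP peak was above that of the other regions of the chromosome on 14 of 23 chromosomes and below it on 9. On none did the share of the other regions lie outside the interval of the isolated share. Among chromosomes with 100 or more isolated regions the share ran from 42.9% on chromosome 3 (60 of 140, interval 34.5 to 51.5%), against 49.0% of other regions there, to 56.8% on chromosome 6 (67 of 118, 47.3 to 65.9%), against 51.4%. On chromosome X it was 50.4% (59 of 117, 41.03 to 59.8%), against 48.2% of other regions, although CREBBP peaks were sparsest there, at 19.4 per Mb, against 108 per Mb on chromosome 7, where 51.9% of 108 isolated regions and 50.8% of others held one. The lowest share, 29.4% on chromosome 21, rests on 5 of 17 regions (10.3 to 55.96%), against 45.8% of others there.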

How the data were processed

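The submitters' processing notes name hg19 as the build and MACS2, Bowtie2, STAR and fastp as tools, with roles, versions, control library and pooling not given in the sources used here. The authors deposited narrow CREBBP peaks and broad H3K27ac regions, each with a fold enrichment (a ratio to expected background), a score, and the −log10 of p and of q. The deposited score was 10 times −log10 p in the CREBBP list and 10 times −log10 q in the H3K27ac list, within 1 unit, and was not used further. These are the authors' values, used only to describe and filter within a list. Library depth is not stated in the lists.

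Positions are on hg19, counted from 1. Chromosomes 1 to 22 and X left out 128 CREBBP peaks and 17 H3K27ac regions. The reference at hand was of another assembly, GRCh38.p14, so no region was assigned to a gene and no sequence is shown. Isolation, overlap, width weighting and the fragment solution were computed in Python 3.11.15 with numpy 2.4.6, pandas 2.3.3 and scipy 1.17.1, and tested on simulated data. Shares carry exact Clopper-Pearson intervals, medians exact binomial order-statistic intervals, and weighted shares normal approximations. No test was made, since each antibody has 1 sample. Regions are named by rule: the 5 isolated regions highest in H3K27ac fold, width, smaller gap and fold of the strongest CREBBP peak, and 3 on each side of the threshold. The members, lists and rules were chosen with earlier results of these data known.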

Additional observations from a re-analysis of the deposited data

How the results depend on the processing

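Of 62 recomputed values, 51 stayed within the interval of the main value or, for the number of regions, within 1.5 times, and no difference whose interval excluded 0 turned its sign. With a gap of 50 kb there were 4299 isolated regions of median width 1319 bp, and with 200 kb there were 820, of median width 1220 bp, of which 8.17% held a CREBBP peak of q at most 0.05. The share of isolated regions with any CREBBP peak was 46.7% by summits inside, 46.1% by an overlap of 50% of the peak and 41.1% with the upper 50% of CREBBP peaks by p. Without matching on width, the difference in that share was 1.29 points, with an interval that includes 0 (-0.908 to 3.49). For peaks of q at most 0.05 it was -2.23 points, with an interval that excludes 0 (-3.47 to -0.877). With flank density matched as well, chosen after seeing the data, the difference for any peak was 3.14 points. The causes were not tested. No paired analysis was possible because there was 1 sample per antibody. A single H3K27ac library and a single CREBBP library limit all values, and weak CREBBP peaks of few fragments make up most of the overlap.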

Other observations

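The longest run of consecutive isolated regions, chosen after its values were seen, held 12 of them on chromosome 5 from 49962128 to 55291493, a span of 5.33 Mb. Their widths ran from 506 to 2648 bp, and their median H3K27ac fold was 9.45, against 5.51 in all 141 isolated regions of chromosome 5. The highest fold in the run was 32.9, at 52095329 to 52096700, which held no CREBBP peak, with the nearest 0.912 kb away. In all, 8 of the 12 held a CREBBP peak (66.7%, exact interval 34.9 to 90.1%), against 49% of all H3K27ac regions, and 1 held one of q at most 0.05, against 11.4%. With 12 regions the interval for any peak is wide and takes in the 49%, and neither difference was tested. The median fold of isolated regions also stood higher on chromosome 11, at 7.33 (95% interval 5.60 to 8.55, 95 regions), against 5.35 in the other regions there, a chromosome picked after the values were seen.

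A few isolated regions carried CREBBP peaks on very high backgrounds. The highest, chosen after seeing the values, was on chromosome 10 from 42394393 to 42395346, where an overlapping CREBBP peak had 927 fragments over a background of 304. The peak shared 246 bp with the region, and its summit lay 0.614 kb outside. The region lay within 1 Mb of a stretch of over 1 Mb without any CREBBP peak. Next was chromosome 3 from 73159860 to 73161090, with 464 fragments over 114. The third was chromosome 9 from 44989829 to 44994122, with 108 over 55.4. A background of 20 fragments or more stood under the strongest peak in 14 of 1017 isolated regions, 1.38% (0.755 to 2.30%), against 149 of 7923 other regions, 1.88%. In all, 22 isolated regions (1.08%) lay within 1 Mb of such an empty stretch, against 108 other regions (0.665%). Of these 22, 9 held a CREBBP peak (40.9%, 20.7 to 63.6%), an interval that takes in the 49% of all regions, and their median width was 758 bp.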
